A study of Mus musculus with 7 samples.

Results

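The Sox2 region is a 992 kb stretch of the mouse genome around Sox2 whose chromatin contacts were counted by 5C (chromosome conformation capture carbon copy). Its members are all 15367 pairs of a forward and a reverse fragment that the deposited table assigns to Sox2, of 86767 pairs in all 7 captured regions. They combine 127 forward fragments (FOR) with 121 reverse fragments (REV) and keep the numbers given by the authors. The neural progenitor cells (NPCs) were derived from V6.5 embryonic stem (ES) cells in 3 steps: embryoid bodies without LIF for 4 days, ITSFn serum-free medium for 5 to 7 days, and Fgf2 medium for another 2 to 4 days. They were set against undifferentiated V6.5 ES cells, grown with LIF and passaged off feeder cells. All libraries come from this one male line, a 129SvJae x C57BL/6 cross, fixed in 1% formaldehyde and cut with HindIII. There were 2 libraries for each cell type. Nothing in the labels says whether replicates were grown separately. The tests below therefore use the spread of these 4 libraries only, which may be technical. No expression was measured here, so the cell types could not be checked against marker genes.

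Sox2 encodes a transcription factor needed in pluripotent cells and again in neural progenitors. In mouse ES cells it is driven by a distal enhancer cluster on the same chromosome, which contacts the gene across the intervening DNA. Chromatin within a contact domain meets more often than chromatin on opposite sides of a boundary, and boundaries are often bound by CTCF and cohesin. In 5C, each read reports a ligation between one forward and one reverse fragment, so a pair with more reads than its distance predicts points to a looped or compact conformation. The table gives distances between fragments and no chromosome coordinates. Positions are therefore in kb from the lowest-numbered fragment, the orientation of the region is unknown here, and no fragment is assigned to the gene, to its enhancers or to a CTCF site.

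Total counts over all regions were 15899829 and 42673906 reads in NPC replicates 1 and 2, against 10742380 and 8236666 reads in ES replicates 1 and 2. The Sox2 region took 1306710 and 3258351 of them in NPCs, against 729899 and 372974 in ES cells. The median pair had 10 and 15 reads in NPCs, against 9 and 8 in ES cells. Pairs with 0 reads made up 12.5% and 13.8% in NPCs and 9.06% and 9.81% in ES cells. ES replicate 2 stood apart from the other libraries in how its reads were spread. Its 10 largest pairs held 5.79% of its Sox2 reads, against 18.2% and 19.4% in NPCs and 13.2% in ES replicate 1. Pairs at least 20 kb apart held 68.4% of its Sox2 reads, against 55.1% and 52.6% in NPCs and 50.3% in ES replicate 1. The part of these differences in the results below was not tested. Across pairs, which share fragments and libraries, log2 counts had a Pearson r of 0.805 between the NPC libraries, 0.882 between the ES libraries and 0.631 to 0.770 between the cell types. The observed over expected values defined below were less alike from pair to pair. Their r was 0.374 between the NPC libraries, 0.508 between the ES libraries and 0.232 to 0.329 between the cell types.

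The first question was where the region is divided into domains in each cell type. The sharpest division of the region in NPCs lay at 440 kb, near its middle, and it was weaker in ES cells. The strength of a division was measured as a boundary contrast, which compares pairs that stay on one side of a position with pairs that cross it (the difference of their mean log2 observed over expected values, for ends within 200 kb). Observed over expected values are log2(count + 1) after removal of the distance decay and of each fragment's own median yield. At 440 kb the contrast was 1.04 and 1.37 in the NPC libraries, against 0.40 and 0.43 in the ES libraries. Both NPC libraries lay above both ES libraries. The difference was 0.79 ± 0.10 (SE), with a Benjamini-Hochberg adjusted p of 0.00252 by limma, and 0.42 with residuals scaled to equal spread (limma adjusted p = 0.000203).

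In ES cells the strongest position was 400 kb. The contrast there was 0.67 and 0.93 in NPCs, against 0.48 and 0.49 in ES cells, a difference of 0.32 ± 0.09 (SE, limma adjusted p = 0.0237). With residuals scaled to equal spread it was 0.01 (limma adjusted p = 0.858). At 380 kb the contrast was 0.38 and 0.47 in NPCs, against 0.37 and 0.40 in ES cells. That difference of 0.04 ± 0.05 (SE) did not pass the test (limma adjusted p = 0.519). From the ES maximum the profiles parted. At 460 kb the contrast stayed at 0.82 and 1.08 in NPCs, against 0.12 and 0.17 in ES cells. The difference there, 0.80 ± 0.09 (SE, limma adjusted p = 0.0019), had rank 1 of 755 positions in all regions.

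**Figure D1:**
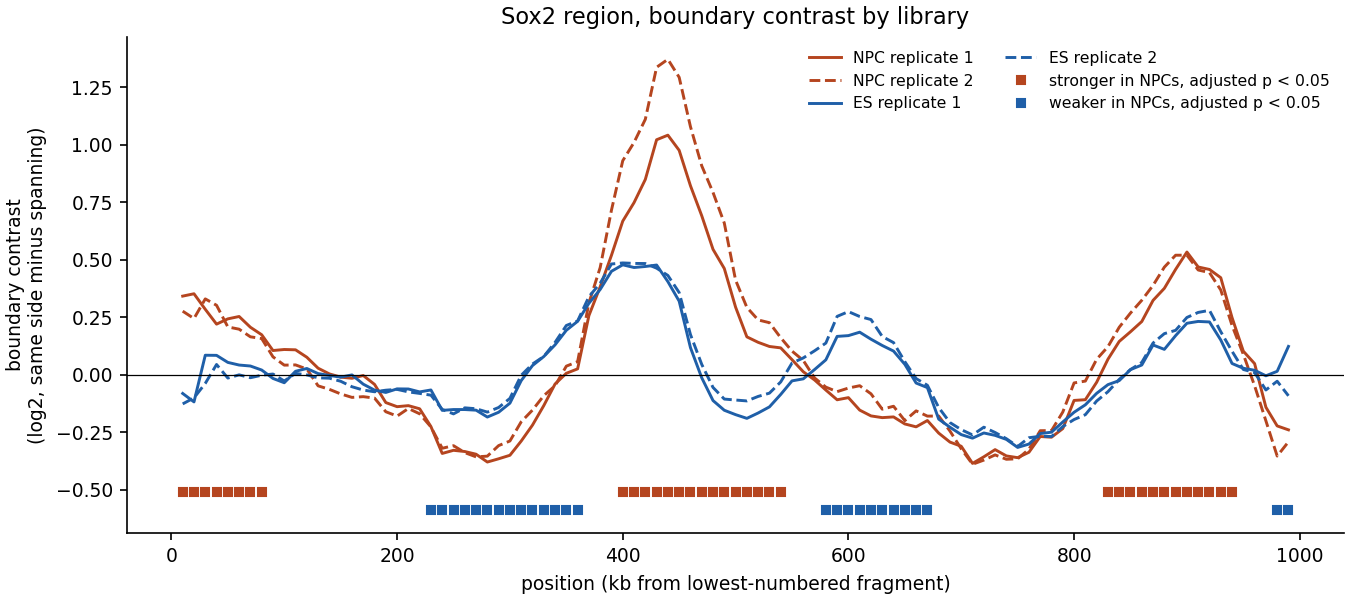
Boundary contrast (log2, vertical axis) every 10 kb along the Sox2 region (horizontal axis, kb from the lowest-numbered fragment) in each NPC library (red) and each ES library (blue). Squares mark positions past an adjusted p of 0.05. The NPC curves peak at 440 kb at 1.04 and 1.37, while the ES curves stay under 0.50, level off near 400 kb and fall to 0.12 and 0.17 at 460 kb.

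The third of the ES positions named, at 600 kb, had a contrast below 0 in NPCs. The contrast at 600 kb was −0.10 and −0.06 in NPCs, against 0.17 and 0.27 in ES cells, a difference of −0.30 ± 0.05 (SE, limma adjusted p = 0.00654). The largest loss was at 620 kb, where the contrast was −0.18 and −0.08 in NPCs, against 0.15 and 0.24 in ES cells (difference −0.33 ± 0.06 SE, limma adjusted p = 0.0059). Without ES replicate 2 the difference at 600 kb was −0.25 (limma adjusted p = 0.0611). Both losses depended on the flank. With a flank of 100 kb the differences were −0.13 at 600 kb (limma adjusted p = 0.23) and −0.06 at 620 kb (limma adjusted p = 0.521). Near the far end, a division at 900 kb had contrasts of 0.53 and 0.52 in NPCs, against 0.22 and 0.25 in ES cells. It was stronger in NPCs by 0.29 ± 0.04 (SE, limma adjusted p = 0.00355), and by 0.12 with residuals scaled to equal spread (limma adjusted p = 0.0767). The second-ranked ES position, at 920 kb, had contrasts of 0.46 and 0.44 in NPCs, against 0.23 and 0.28 in ES cells, a difference of 0.20 ± 0.05 (SE, limma adjusted p = 0.0134). That call was lost without ES replicate 1, at 0.17 (limma adjusted p = 0.209), and without ES replicate 2, at 0.22 (limma adjusted p = 0.101). It was also lost with residuals scaled to equal spread, at 0.04 (limma adjusted p = 0.571).

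Of the 99 positions tested in the Sox2 region, 35 were stronger in NPCs, which is 35.4%, against 35.5% of positions in all regions. A further 26 positions, or 26.3%, were weaker in NPCs, against 19.3% in all regions. These called positions formed few runs, since neighbouring positions share pairs. Positions from 10 to 80 kb, from 400 to 540 kb and from 830 to 940 kb were stronger in NPCs. Positions from 230 to 360 kb, from 580 to 670 kb and from 980 to 990 kb were weaker. Not all of these were divisions in ES cells. From 230 to 310 kb and at 660 and 670 kb the mean ES contrast was itself negative. At 280 kb, for example, it was −0.17, against −0.37 in NPCs. At 980 and 990 kb it was −0.007 and 0.016, with 101 and 25 pairs that cross the position. Over the 99 positions, which overlap in the pairs they use, the profiles had a Pearson r of 0.982 between the NPC libraries and 0.972 between the ES libraries. Between the cell types r was 0.686 to 0.704. The counts of calls were lower without one ES library. Without ES replicate 1, 18 positions were stronger and 7 weaker in NPCs, and without ES replicate 2, 19 were stronger and 6 weaker.

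The contact map averages the same observed over expected values as the boundary contrast, so it is not a separate observation of the change. In it, a block of contacts near the middle of the region was present in ES cells and lower in NPCs. Observed over expected values were averaged in windows of 60 by 60 kb. The windows joining 420 to 480 kb with 480 to 540 kb and with 540 to 600 kb, and the window within 480 to 540 kb, were the highest of the region in ES cells. Contacts of 420 to 480 kb with 480 to 540 kb averaged −0.61 and −0.51 in NPCs, against 0.76 and 0.70 in ES cells, over 102 pairs. This loss of 1.29 on the log2 scale ± 0.08 (SE) was the largest of the region and had rank 7 by size among the 1474 windows of all regions (limma adjusted p = 0.0117). Contacts within 480 to 540 kb averaged 0.18 and 0.23 in NPCs, against 0.85 and 0.86 in ES cells (difference −0.65 ± 0.11 SE, limma adjusted p = 0.0367).

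The rest of the block followed. Contacts within 420 to 480 kb averaged −0.86 and −0.86 in NPCs, against −0.10 and 0.13 in ES cells (difference −0.87 ± 0.11 SE, limma adjusted p = 0.0224). Contacts of 420 to 480 kb with 540 to 600 kb averaged −0.12 and −0.19 in NPCs, against 0.64 and 0.55 in ES cells (difference −0.75 ± 0.07 SE, limma adjusted p = 0.0224). The groups did not overlap in any of these windows. By contrast, contacts within 540 to 600 kb averaged 0.47 and 0.47 in NPCs, against 0.15 and 0.35 in ES cells, and did not pass the test (limma adjusted p = 0.251). The values are relative to the typical yield of each fragment in its library, and the block depends on that step. With distance removed and fragment yields kept, the difference between 420 to 480 kb and 480 to 540 kb was −0.39 (limma adjusted p = 0.139). Under that setting the difference between 420 to 480 kb and 540 to 600 kb turned to 0.18 (limma adjusted p = 0.531), the difference within 480 to 540 kb turned to 0.53, and that within 420 to 480 kb was −0.22 (limma adjusted p = 0.39). Fragments of 540 to 600 kb also had more reads in NPCs, as given below.

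**Figure D2:**
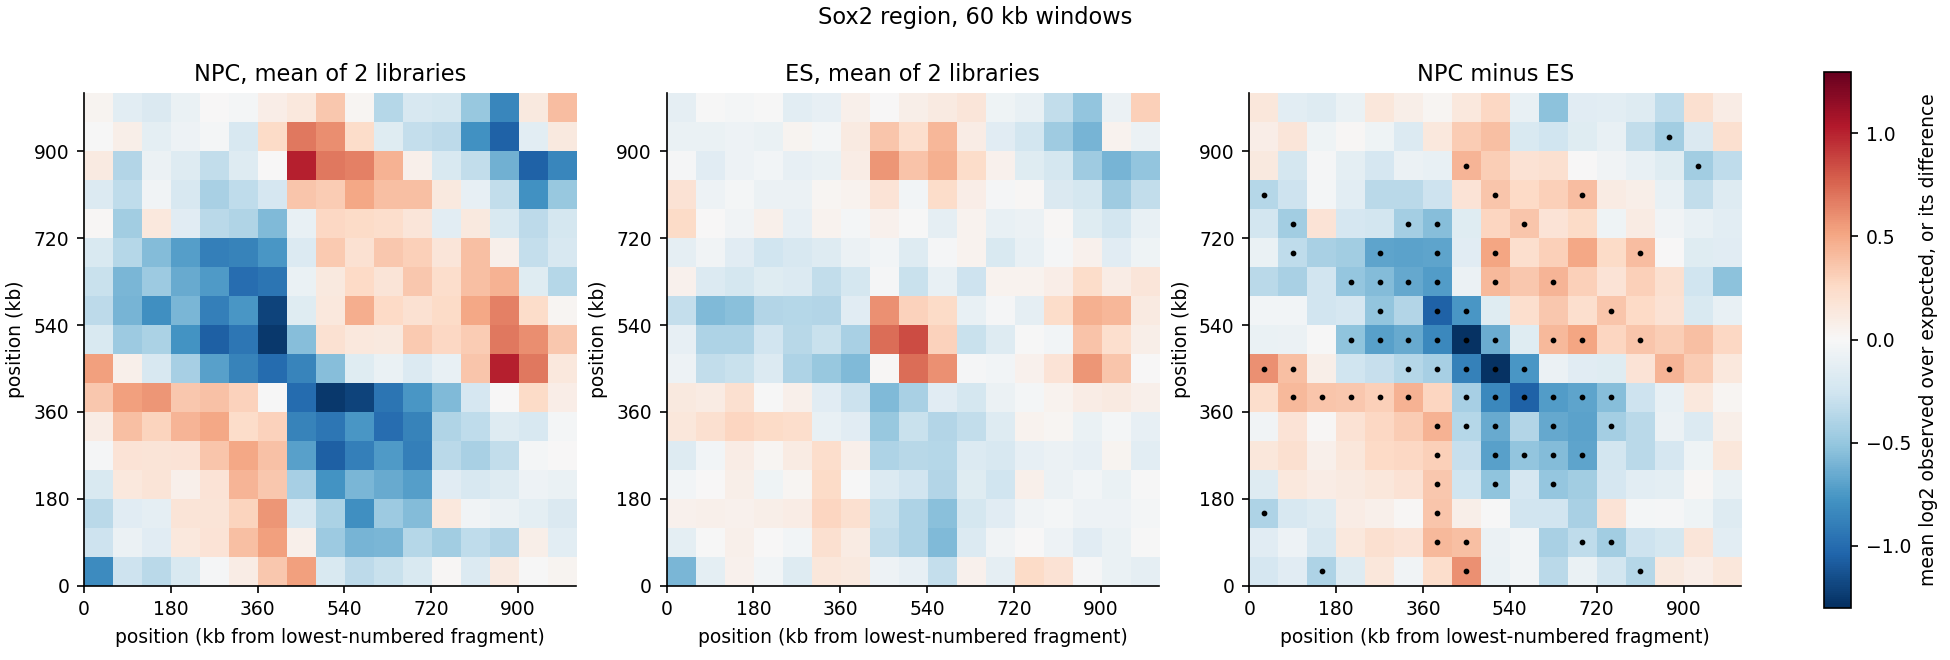
Mean log2 observed over expected contacts in 60 by 60 kb windows of the Sox2 region for NPCs (left), ES cells (middle) and NPC minus ES (right), with both axes in kb from the lowest-numbered fragment. Dots mark windows past an adjusted p of 0.05; the deepest loss joins 420 to 480 kb with 480 to 540 kb at −1.29, and blue squares around it join positions below 420 kb to positions above it.

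Contacts across the NPC division were lower in NPCs over a wide area, relative to the typical yield of each fragment. Called gains across 420 kb joined 420 to 480 kb with 0 to 60 kb, at 0.60, and with 60 to 120 kb, at 0.39 (limma adjusted p = 0.0267 for each). Contacts of 360 to 420 kb with 540 to 600 kb averaged −1.02 and −1.38 in NPCs, against −0.11 and −0.19 in ES cells. This difference of −1.05 ± 0.12 (SE, limma adjusted p = 0.0224) was also called with fragment yields kept, at −0.72 (limma adjusted p = 0.00667), and on summed reads, at −0.68 (edgeR adjusted p = 0.0256). Contacts of 360 to 420 kb with 480 to 540 kb averaged −1.09 and −1.42 in NPCs, against −0.41 and −0.43 in ES cells (difference −0.83 ± 0.12 SE, limma adjusted p = 0.0267). In both windows the NPC libraries lay below both ES libraries. Some called losses that join positions below 420 kb to positions above it depended on the removal of fragment yields. With yields kept, −0.65 between 300 to 360 kb and 480 to 540 kb turned to 0.06. For 60 to 120 kb, −0.33 with 660 to 720 kb turned to 0.60, and −0.45 with 720 to 780 kb to 0.41. The remaining called losses across 420 kb kept their sign. On summed reads more turned, such as 240 to 300 kb with 600 to 660 kb, from −0.57 to 1.28.

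The segment from 360 to 420 kb, singled out after its values were seen, changed in opposite directions on its sides. With earlier partners, 5 of 6 windows were called higher in NPCs, and the 6 differences ran from 0.23 to 0.45 with a median of 0.36. The window not called was that with partners from 0 to 60 kb. With later partners, 6 of 10 windows were called lower in NPCs, namely those with partners from 420 to 780 kb. The 10 differences ran from −1.05 to 0.13, with a median of −0.49 and 2 of them above 0. The gains with earlier partners depended on the removal of fragment yields. With yields kept, 2 of the 6 windows with earlier partners were higher in NPCs and 4 were lower, while 9 of the 10 windows with later partners were lower.

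The largest gains were smaller than the largest losses. Contacts of 0 to 60 kb with 420 to 480 kb averaged 0.57 and 0.50 in NPCs, against −0.16 and 0.03 in ES cells, the largest gain of the region at 0.60 ± 0.08 (SE, limma adjusted p = 0.0267). Beyond the NPC division, contacts of 480 to 540 kb with 660 to 720 kb averaged 0.36 and 0.32 in NPCs, against −0.14 and −0.20 in ES cells (difference 0.51 ± 0.09 SE, limma adjusted p = 0.0378). Contacts within 600 to 660 kb averaged 0.13 and 0.21 in NPCs, against −0.34 and −0.19 in ES cells (difference 0.44 ± 0.09 SE, limma adjusted p = 0.0487). The highest window of the region in NPCs joined 420 to 480 kb with 840 to 900 kb, far apart. It averaged 0.95 and 1.08 in NPCs, against 0.67 and 0.48 in ES cells, and so stood above expected in all libraries, with a difference of 0.44 ± 0.09 (SE, limma adjusted p = 0.0459). With residuals scaled to equal spread that difference was 0.07 (limma adjusted p = 0.593). Contacts of 300 to 360 kb with 360 to 420 kb averaged 0.28 and 0.33 in NPCs, against −0.18 and −0.10 in ES cells (difference 0.45 ± 0.06 SE, limma adjusted p = 0.0267). On summed reads that last difference was −0.09 (edgeR adjusted p = 0.824).

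In all, 14 of 153 windows were higher in NPCs, or 9.15%, against 4.07% of windows in all regions. A further 25 windows were higher in ES cells, or 16.3%, against 5.63% in all regions. The window calls needed both ES libraries. Without ES replicate 1 or without ES replicate 2, limma called 0 windows in either direction. At an unadjusted p under 0.05 there were then 13 higher in NPCs in each case, and 26 and 24 higher in ES cells. Without NPC replicate 1 the counts were 45 and 62, and without NPC replicate 2 they were 36 and 46. Of the 10 windows given by the naming rule, 6 also passed with fragment yields kept, 4 on summed reads with edgeR and 0 with the authors' deposited ratio. With either ES library left out, these 10 windows kept the sign of their difference, and the loss between 420 to 480 kb and 480 to 540 kb was −1.26 without ES replicate 1 and −1.32 without ES replicate 2.

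The next question was whether whole fragments gained or lost reads, which bears on every pair they form. Reads were summed over all pairs of a fragment and compared with edgeR's quasi-likelihood test. Each read counts for both of its fragments, so the sums of fragments that share a pair are not independent. Counts of called fragments in a stretch are therefore not counts of separate changes. In the Sox2 region 63 of 248 fragments were higher in NPCs, or 25.4%, against 26.1% in all regions. A further 51 were higher in ES cells, or 20.6%, against 26.4% in all regions. Gains were unevenly spread along the region. From 60 to 120 kb, NPCs were higher in 11 of 19 fragments and ES cells in 3, with a median log2 fold change of 0.90. From 540 to 600 kb, 7 of 13 fragments were higher in NPCs, with a median log2 fold change of 1.03. From 600 to 660 kb, 10 of 18 were higher in NPCs, with a median of 0.83, against 0.01 over all Sox2 fragments. In the last 2 stretches 0 fragments were higher in ES cells by edgeR. Scaled by library totals, 1 of the fragments from 60 to 120 kb was higher in NPCs, 3 of those from 540 to 600 kb and 5 of those from 600 to 660 kb. From 120 to 180 kb, 0 fragments were higher in NPCs by edgeR and 5 of 10 were higher in ES cells, with a median log2 fold change of −1.19.

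Some single fragments stood out by the size of their change. REV174, at 503 kb, held 14931 and 47595 reads in NPCs, against 705 and 293 reads in ES cells (log2 fold change 4.55 ± 0.35 SE, edgeR adjusted p = 1.1e-09). NPCs were higher in 55 of its 94 tested pairs and ES cells in 0, out of 127 pairs it forms. FOR215, at 657 kb, held 104143 and 320861 reads in NPCs, against 8037 and 3771 reads in ES cells (log2 fold change 3.74 ± 0.38 SE, edgeR adjusted p = 1.07e-07). That was 7.97% and 9.85% of all Sox2 reads in NPCs, against 1.10% and 1.01% in ES cells. The largest pair of FOR215 in each library gave 49.9% and 47.0% of its reads in NPCs, against 34.7% and 20.2% in ES cells.

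Close to FOR215, REV217 at 660 kb held 86402 and 273824 reads in NPCs, against 17492 and 6611 in ES cells. The pair of these fragments, 3.10 kb apart, gave 51947 and 150711 of the reads of each in NPCs, against 2786 and 760 in ES cells, so their sums are not independent. Without that pair REV217 held 34455 and 123113 reads in NPCs, against 14706 and 5851 in ES cells. REV227 at 674 kb held 13623 and 47562 reads in NPCs, against 3089 and 2016 in ES cells. REV240 at 727 kb held 34530 and 87956 reads in NPCs, against 4389 and 4072 in ES cells. In these 3 fragments both NPC libraries held more reads than either ES library. FOR303 at 876 kb held 10972 and 38895 reads in NPCs, against 2435 and 1035 in ES cells. Their log2 fold changes were 2.51 for REV217, 2.05 for REV227, 2.32 for REV240 and 2.40 for FOR303. All 4 passed the edgeR test, with adjusted p-values up to 1.48e-05.

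Fragments lost in NPCs were spread along the region. FOR079, at 248 kb, held 2579 and 2281 reads in NPCs, against 7172 and 4503 in ES cells (log2 fold change −2.43 ± 0.39 SE, edgeR adjusted p = 2.51e-05). FOR159 at 459 kb, REV162 at 467 kb and FOR173 at 502 kb lay in the block of contacts described above, whose other fragments did not all fall. From 420 to 480 kb, edgeR called 6 of 17 fragments in favour of NPCs and 5 in favour of ES cells (median log2 fold change 0.16). From 480 to 540 kb it called 5 of 12 in favour of NPCs and 3 in favour of ES cells (median 0.55). Scaled by library totals, these counts were 2 and 3 from 420 to 480 kb, and 1 and 2 from 480 to 540 kb. FOR159 held 1779 and 1994 reads in NPCs, against 4858 and 3594 in ES cells. REV162 held 881 and 1308 reads in NPCs, against 3055 and 1902 in ES cells. FOR173 held 3418 and 4994 reads in NPCs, against 8252 and 5105 in ES cells. Although the NPC libraries were deeper, these fragments had fewer reads in them. FOR282 at 816 kb and FOR328 at 949 kb also fell, with log2 fold changes of −2.20 and −1.81. FOR173 and REV174, which follow each other in the numbering, moved in opposite directions, with log2 fold changes of −1.96 for FOR173 and 4.55 for REV174.

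**Figure D3:**
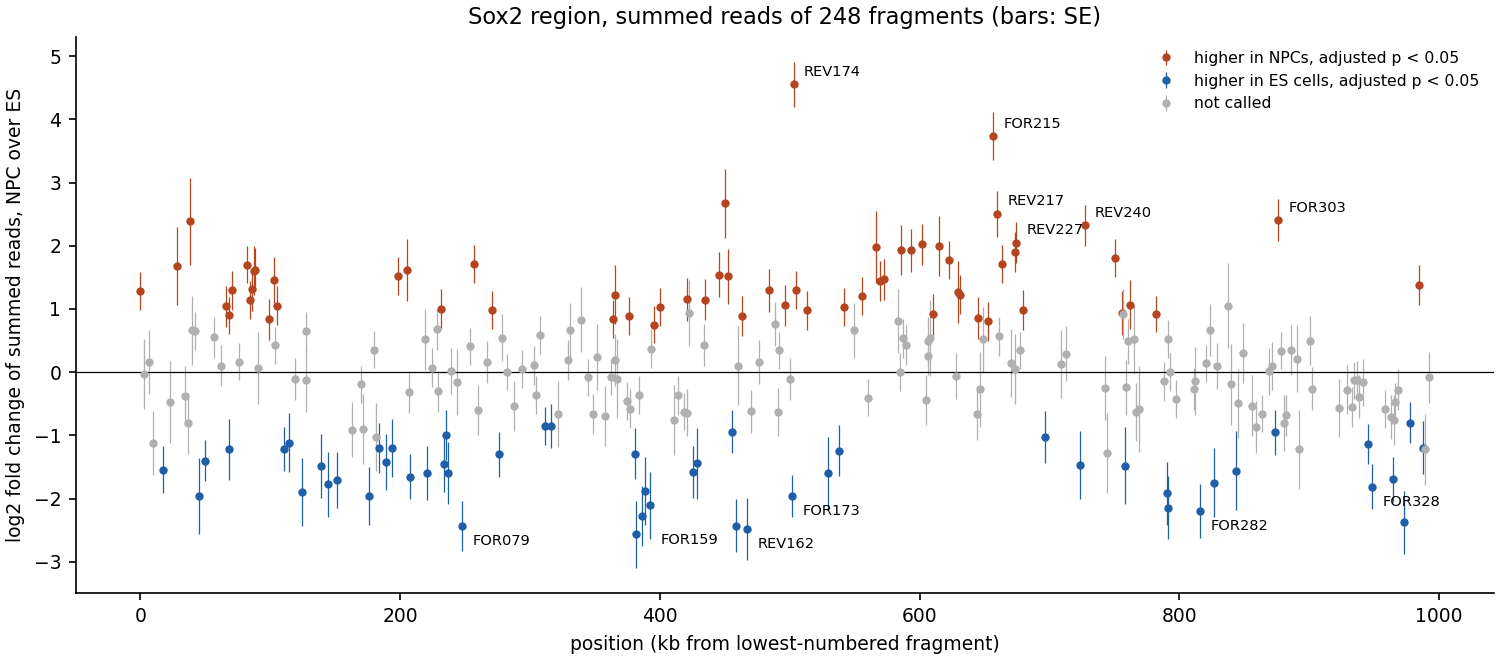
Log2 fold change of summed reads, NPC over ES (vertical axis, bars are SE), for 248 fragments of the Sox2 region against position (horizontal axis, kb from the lowest-numbered fragment). Red and blue points passed an adjusted p of 0.05; REV174 at 4.55 and FOR215 at 3.74 stand above the rest, and most points between 540 and 660 kb lie above 0.

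The contacts of a fragment and the yield of its primer both enter its summed reads and cannot be told apart here. The balance of calls also depended on the scaling. Scaled by library totals, 21 fragments were called in favour of NPCs and 33 in favour of ES cells, so that 38.9% of the calls were in favour of NPCs, against 55.3% with TMM factors. The median log2 fold change of all fragments in all regions was −0.06 with TMM factors and −0.21 with library totals. All 12 fragments named here passed under both scalings and without any one library. The counts were 34 and 20 without ES replicate 1, and 39 and 13 without ES replicate 2.

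The same libraries were then compared pair by pair with edgeR. Of 8692 pairs with a mean of at least 10 reads, edgeR called 405 higher in NPCs, or 4.66%, against 4.90% in all regions. It called 102 higher in ES cells, or 1.17%, against 2.33% in all regions. Pairs higher in NPCs had a median distance of 175 kb, and pairs higher in ES cells 96.0 kb, against 218 kb for all tested pairs of the region. Neighbours under 10 kb apart made up 5.93% of the pairs higher in NPCs and 15.7% of those higher in ES cells, against 3.91% of tested pairs. Of the 405 pairs higher in NPCs, 165 included one of the 6 fragments named as higher in NPCs. Of the 102 pairs higher in ES cells, 41 included one of the 6 named as higher there. Of the 8692 tested pairs, the former fragments had 90 to 120 each and the latter 31 to 78 each. These fragments were named by sums of the same reads, so such an overlap is partly built in. The calls rested on both ES libraries. Without ES replicate 1, 34 pairs were called in favour of NPCs and 0 in favour of ES cells, and without ES replicate 2, 7 and 0. At an unadjusted p under 0.05, 259 and 194 pairs were then higher in ES cells. Without NPC replicate 1 the counts were 2353 and 1866, and without NPC replicate 2 they were 599 and 290. Scaled by library totals, 183 and 121 pairs were called, so 60.2% rather than 79.9% of the calls were in favour of NPCs. That scaling moved the median log2 fold change of all tested pairs to −0.29, against 0.12 with TMM factors.

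The strongest gains in NPCs included contacts over long distances. FOR190 and REV240, at 586 and 727 kb and thus 141 kb apart, had 13029 and 38628 reads in NPCs, against 228 and 140 in ES cells (log2 fold change 5.95 ± 0.75 SE, edgeR adjusted p = 0.0225). This was the largest pair of the region at 20 kb or more in both NPC libraries. In the authors' deposited table, its ratio of reads to predicted signal was 15.2 and 14.7 in NPCs, against 1.28 and 1.56 in ES cells. FOR072 and REV193, at 232 and 593 kb and 362 kb apart, had 9925 and 19368 reads in NPCs, against 106 and 78 in ES cells (log2 fold change 6.19 ± 0.69 SE, edgeR adjusted p = 0.0225). This pair spans the NPC division at 440 kb.

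Other long contacts rose from few reads. FOR303 and REV001, at opposite parts of the region and 876 kb apart, had 897 and 1954 reads in NPCs, against 11 and 8 in ES cells (log2 fold change 6.08 ± 0.60 SE). FOR215 and REV040, 529 kb apart, had 716 and 1569 reads in NPCs, against 12 and 8 in ES cells (log2 fold change 5.69 ± 0.58 SE). FOR014 and REV152, 392 kb apart, had 1071 and 2457 reads in NPCs, against 49 and 27 in ES cells (log2 fold change 4.41 ± 0.55 SE). In these pairs every NPC library exceeded every ES library, which the naming rule required of the scaled reads. FOR215 and REV174, the fragments with the largest gains, had 2296 and 3443 reads together in NPCs, against 2 and 0 in ES cells. Scaled for depth, that ratio was 1337, with an exact 95% interval of 370 to 11040 that covers counting error only.

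Shorter contacts were also among the gains with the lowest p. FOR171 and REV174, 6.63 kb apart, had 681 and 3596 reads in NPCs, against 6 and 1 in ES cells (log2 fold change 7.98 ± 0.93 SE). FOR094 and REV116, 59.1 kb apart, had 189 and 319 reads in NPCs, against 0 and 0 in ES cells. That is at least 38.6-fold higher when each ES library is set at 3 counts. Neither of these pairs exceeded the authors' predicted signal in both NPC libraries. The deposited ratio in NPCs was 1.12 and 0.699 for FOR171 and REV174, and 0.800 and 1.18 for FOR094 and REV116. The log2 observed over expected of FOR171 and REV174 was 0.27 and −0.19 in NPCs, against −2.72 and −2.47 in ES cells. That of FOR094 and REV116 was −0.24 and 0.00 in NPCs, against −7.02 and −6.56 in ES cells. Both pairs were thus near expected in NPCs and below it in ES cells. The other gains named had ratios of 2.33 or more in both NPC libraries. All 8 of these gains had an edgeR adjusted p of 0.0225. Without ES replicate 1, 6 of them passed, with edgeR adjusted p-values of 0.0626 for FOR094 and REV116 and 0.0520 for FOR014 and REV152. Without ES replicate 2, 5 passed, with edgeR adjusted p-values of 0.0534 for FOR215 and REV040, 0.0648 for FOR094 and REV116 and 0.0747 for FOR014 and REV152. All 8 kept their direction. When the fragments' own changes entered the fit as an offset, all 8 kept their direction with a median log2 fold change of 3.57, and their edgeR adjusted p-values were 0.143 to 0.212. Under that offset 0 Sox2 pairs were called in either direction by edgeR, while an unadjusted p under 0.05 was reached by 354 pairs with NPCs higher and by 490 with ES cells higher.

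**Figure D4:**
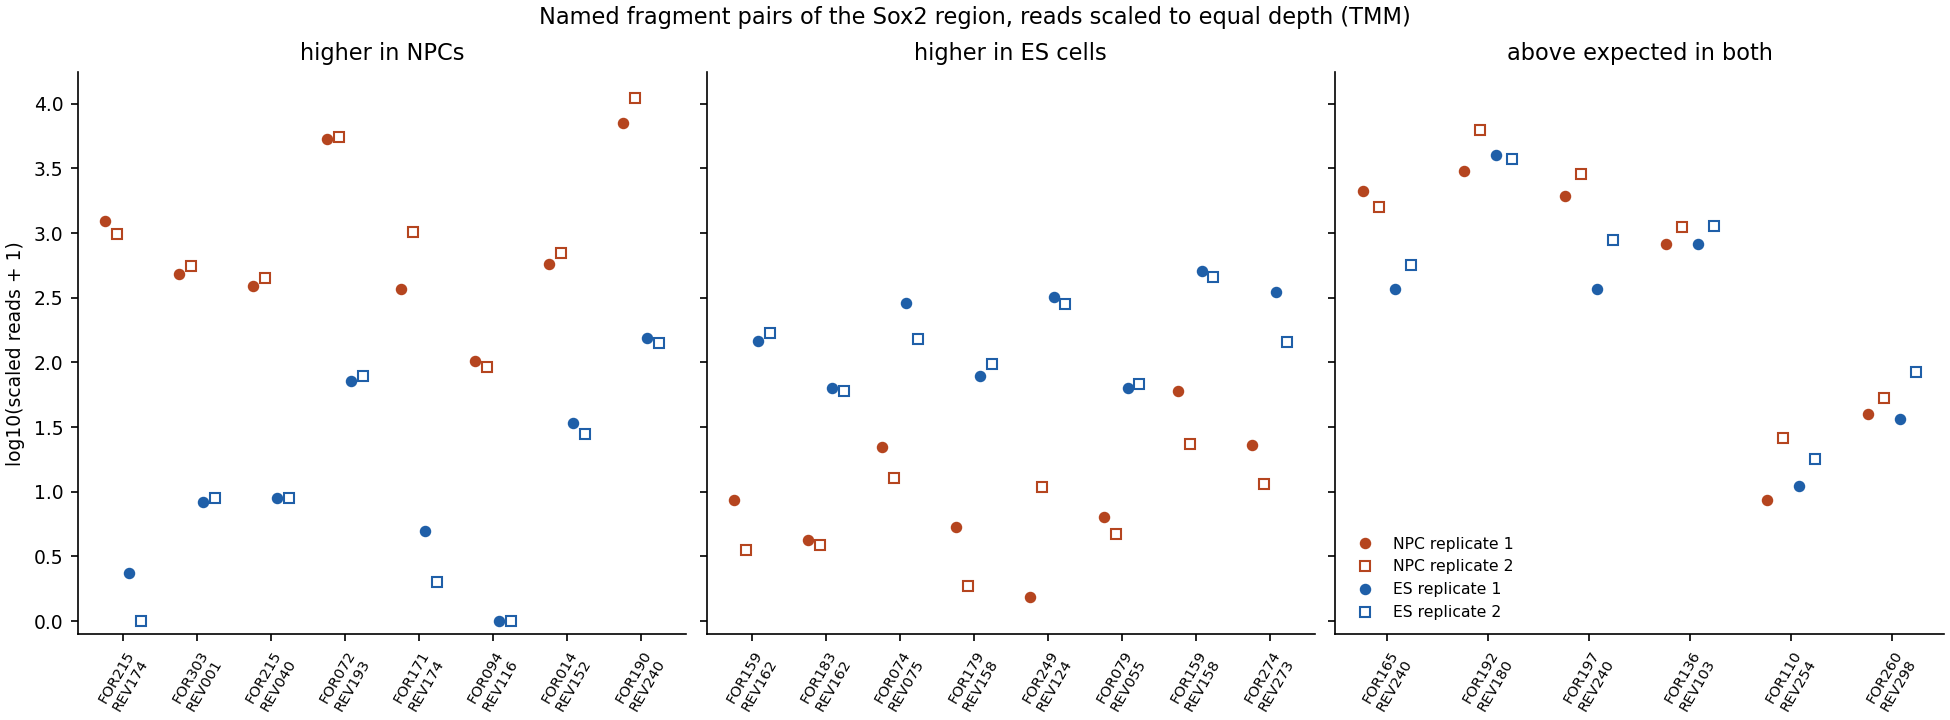
Reads of the named pairs on a log10(scaled reads + 1) axis, scaled to equal depth with TMM factors, in NPC replicates 1 and 2 (red) and ES replicates 1 and 2 (blue). The 8 pairs higher in NPCs (left) and the 8 higher in ES cells (middle) were named only if the groups did not overlap. Of the 6 pairs above expected in both (right), FOR165 and REV240, and FOR197 and REV240, have more reads in NPCs.

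Of the 102 pairs higher in ES cells, 22 had both ends between 420 and 600 kb, or 21.6%, against 380 of the 8692 tested pairs, or 4.37%. Of the 405 pairs higher in NPCs, 31 did, or 7.65%. This stretch was chosen after its values were seen, and the other losses lay elsewhere. The fragment with the most pairs higher in ES cells was FOR079 at 248 kb, with 15. Of the 8 losses named, 4 lay in the stretch. FOR159 and REV162, 8.56 kb apart, had 14 and 9 reads in NPCs, against 219 and 167 in ES cells (log2 fold change −5.00 ± 0.71 SE, edgeR adjusted p = 0.0233). FOR179 and REV158, at 538 and 456 kb, had 8 and 3 reads in NPCs, against 116 and 96 in ES cells (log2 fold change −5.15 ± 0.87 SE, edgeR adjusted p = 0.0270). FOR183 and REV162, at 560 and 467 kb, had 6 and 10 reads in NPCs, against 94 and 59 in ES cells (log2 fold change −4.30 ± 0.69 SE, edgeR adjusted p = 0.0249). FOR159 and REV158, 2.96 kb apart, had 110 and 78 reads in NPCs, against 756 and 459 in ES cells. These 4 pairs lie between 456 and 560 kb and share FOR159, REV158 and REV162 among them. In each of them the NPC libraries had fewer reads than the ES libraries despite their greater depth. Lower scaled reads in both NPC libraries were required by the naming rule.

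Of the other 4 losses named, FOR074 and REV075, neighbours 1.52 kb apart, had 39 and 41 reads in NPCs, against 426 and 151 in ES cells. FOR274 and REV273, 0.839 kb apart, had 41 and 37 reads in NPCs, against 523 and 142 in ES cells. FOR079 and REV055, 63.8 kb apart, had 10 and 13 reads in NPCs, against 94 and 67 in ES cells. FOR249 and REV124, 367 kb apart, stood out in ES cells. It had 1 and 35 reads in NPCs, against 481 and 284 in ES cells (log2 fold change −5.72 ± 0.97 SE, edgeR adjusted p = 0.0270), so the NPC libraries also differed between themselves. In the authors' deposited table its ratio was 0.133 and 2.13 in NPCs, against 174 and 123 in ES cells. On the same ratio the groups overlapped for FOR079 and REV055, at 0.984 and 2.17 in NPCs, against 1.42 and 1.26 in ES cells. They also overlapped for FOR159 and REV158, at 0.992 and 1.67 in NPCs, against 1.80 and 1.55 in ES cells. For the other losses named they did not overlap. Without ES replicate 1 or without ES replicate 2, 0 of the 8 losses passed the edgeR threshold, with adjusted p-values up to 0.174 and 0.229. All 8 kept their direction.

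Pairs above expected were counted at a log2 observed over expected of 1 or more. In both NPC libraries and called higher there were 152 pairs, or 0.989% of the region's pairs, against 1.25% in all regions. In both ES libraries and called higher in ES cells there were 19 pairs, or 0.124%, against 0.168% in all regions. FOR159 took part in 7 of these 19 pairs, FOR173 in 5, and REV158 and REV162 in 4 each. All of these fragments lie between 456 and 502 kb, inside the block that was lower in NPCs. FOR215 and REV174 each took part in 13 of the 152 NPC pairs. The call by edgeR is part of this count, so it describes the same difference again. Without ES replicate 1 or ES replicate 2, 0 ES pairs met the rule, and 21 and 6 NPC pairs did. Without NPC replicate 1, which loosens the rule, 991 NPC pairs and 64 ES pairs met it, and without NPC replicate 2, 351 and 24.

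A further 102 pairs were above expected in all 4 libraries and not called, or 0.664% of the region's pairs, against 1.77% in all regions. Their median distance was 409 kb, and there were 110 to 225 of them with single libraries left out. Few reads lay behind many of them: 37 had a mean under 10 reads, and 12 had 0 reads in every library and reached the threshold through a low expected value alone. The strongest of these contacts were well covered. FOR192 and REV180, 48.1 kb apart at 590 and 542 kb, had 5574 and 22071 reads in NPCs, against 6023 and 3736 in ES cells. Its log2 observed over expected was 4.33 and 4.27 in NPCs, against 6.05 and 6.35 in ES cells. It was the largest pair at 20 kb or more in both ES libraries, and the difference in reads did not pass the test (log2 fold change 0.26 ± 0.63 SE, edgeR adjusted p = 0.809).

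REV240, at 727 kb, was part of 2 others. With FOR165, 243 kb away, it had 3905 and 5565 reads in NPCs, against 549 and 561 in ES cells, and log2 observed over expected values of 6.54 and 4.94 in NPCs, against 5.63 and 6.21 in ES cells. With FOR197, 121 kb away, it had 3603 and 10064 reads in NPCs, against 549 and 879 in ES cells. The edgeR adjusted p-values of these pairs were 0.0656 with FOR165 and 0.0928 with FOR197. FOR136 and REV103, 66.0 kb apart at 395 and 329 kb, had 1516 and 3919 reads in NPCs, against 1226 and 1137 in ES cells. Its log2 observed over expected was 3.97 and 3.55 in NPCs, against 3.92 and 4.79 in ES cells, with a log2 fold change of −0.01 ± 0.52 (SE, edgeR adjusted p = 0.989). FOR260 and REV298, 97.1 kb apart, had 72 and 183 reads in NPCs, against 53 and 83 in ES cells. FOR110 and REV254, 417 kb apart, had 14 and 88 reads in NPCs, against 15 and 17 in ES cells.

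The last comparison concerned how contacts fell off with distance. Between 10 kb and 1 Mb, log10(scaled count + 1) had a slope on log10 distance of −0.605 and −0.606 in NPCs, against −0.503 and −0.497 in ES cells. Both NPC slopes were steeper than both ES slopes, by −0.106 with a pooled SD of 0.00282 (exact two-sided permutation p = 0.333, the smallest that 2 against 2 libraries allow). Within 10 to 50 kb the median pair had 29.2 and 25.1 scaled reads in NPCs, against 26.1 and 32.0 in ES cells, and the groups overlapped. From 500 to 1000 kb it had 2.70 and 1.71 scaled reads in NPCs, against 3.34 and 5.00 in ES cells, with both NPC libraries lower. The size of the difference depended on the pairs used. From 20 to 500 kb the difference in slope was −0.0470, and with pairs at 0 reads left out it was −0.0600.

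**Figure D5:**
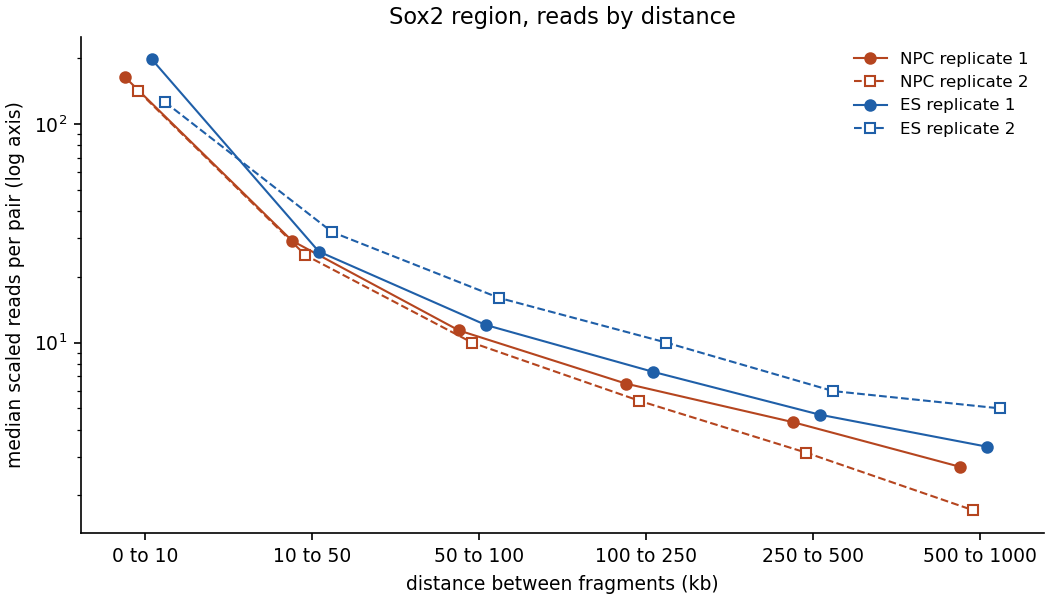
Median scaled reads per pair (log axis) against distance between fragments in kb, for NPC replicates 1 and 2 (red) and ES replicates 1 and 2 (blue), with counts scaled to the smallest library. The NPC lines lie below the ES lines from 50 kb on, reaching 2.70 and 1.71 reads at 500 to 1000 kb, against 3.34 and 5.00 in ES cells.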

How the data were processed

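The values used are raw read counts deposited by the authors for every pair in each 5C library. The authors' table also holds a deposited predicted signal, the deposited ratio of reads to it (0 reads entered as 0.25) and a deposited p-value for each, by a model not stated in the sources used here. Bowtie is listed for the 5C data per the submitters' processing notes. A further 8 per-sample columns and the CTCF and Smc1 peak lists were not used, since the table has no coordinates to place them on.

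Positions were rebuilt from the deposited distances, with a largest misfit of 0.534 bp. Pairs and fragments were tested with edgeR 4.0.16 in R 4.3.3 (quasi-likelihood, TMM factors, mean of at least 10 reads, cell type as the only term). Observed over expected values were log2(count + 1) less a smooth distance trend (lowess on log10 distance, span 0.3) and median fragment yields, over 5 rounds within a region and library. Windows with at least 4 pairs, and boundary positions with at least 20 pairs of each kind, were tested with limma 3.58.1. All tests ran over all 7 regions, adjusted by Benjamini-Hochberg with a threshold of 0.05. Pairs named were the 8 per direction with the lowest p whose groups did not overlap and the 6 highest in all libraries, with at most 2 per fragment. Fragments named were the 6 per direction with the lowest p. The 5 windows per direction with the largest difference were named, and the 3 strongest boundary positions per cell type at least 60 kb apart with the largest gain and loss. The window within 480 to 540 kb, the window within 540 to 600 kb, the segment from 360 to 420 kb, the stretch from 420 to 600 kb and the pair of FOR215 with REV217 were added after their values were seen. The members, lists and measures were chosen with earlier results of these data known. DESeq2 1.42.0 was an alternative. Intervals and bounds cover counting error only.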

Additional observations from a re-analysis of the deposited data

How the results depend on the processing

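Counts come in pairs, NPC direction before ES direction, and are given for alternatives that moved a count by over 1.5 times. For pairs, library totals gave 183 higher in NPCs, no count filter 1142 and 293, DESeq2 901 and 344, limma 709 and 317, thinned reads 653 and 248, the fragment offset 0 and 0, and a mean of at least 50 reads 266 higher in ES cells. Leaving out single libraries gave 7 to 2353 and 0 to 1866 pairs. For fragments, library totals gave 21 and 33, and leaving out libraries 34 to 76 and 13 to 73. For windows, 40 kb windows gave 3 and 11, distance alone 39 higher in NPCs, the authors' deposited ratio 0 and 0 (16 and 58 at an unadjusted limma p under 0.05), edgeR on summed reads 30 higher in NPCs, a pseudocount of 5 gave 23, and leaving out libraries 0 to 45 and 0 to 62. For boundaries, a 100 kb flank gave 19 and 8, distance alone 9 weaker, the authors' deposited ratio 1 weaker, and leaving out libraries 18 to 39 and 6 to 30. Pairs above expected in both, in NPCs and in ES cells numbered 21, 90 and 13 at a threshold of 1.5, and 66, 133 and 16 by the authors' deposited ratio. Those in both numbered 65 with a mean of at least 10 reads, chosen after seeing the data. Leaving out libraries, which loosens the rule, gave 110 to 225, 6 to 991 and 0 to 64. The slope difference was −0.0470 from 20 to 500 kb, −0.0600 without pairs at 0 reads, and −0.108 to −0.103 when libraries were left out. The cause of these shifts was not tested.

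Among the windows and positions given by the naming rules, signs turned in 5 cases. The window of 300 to 360 kb with 360 to 420 kb was −0.089 on summed reads, and that of 420 to 480 kb with 540 to 600 kb was 0.18 with distance alone. The contrast at 380 kb was −0.13 with a 100 kb flank, −0.16 with residuals scaled to equal spread, and −0.0020 to 0.082 when libraries were left out, with the lowest without NPC replicate 2. The window within 480 to 540 kb, added after its values were seen, also turned, to 0.53 with distance alone and 0.30 on summed reads.

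Replicates with the same number did not deviate together, with a correlation of −0.103 over pairs and −0.162 over fragments, so the numbers were not taken as pairs. In the fit with a replicate block, 530 and 177 pairs, 59 and 41 fragments, 0 and 6 windows (29 and 41 at an unadjusted limma p under 0.05) and 35 and 25 boundary positions were called. With the numbers crossed, chosen after seeing the data, 604 and 167 pairs and 65 and 56 fragments were called.

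With a library left out, the lone library was assumed to vary like the other cell type. The median log2 fold change of tested Sox2 pairs was 0.23 with TMM factors and −0.17 with library totals. Contacts of the Sox2 gene itself, and of fragments with CTCF or Smc1 peaks, were not run because no genome was used here. The median pair had 8 to 15 reads per library, which limits what can be said of single pairs.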

Other observations

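The authors' deposited p-values, given per pair and library, were under 0.05 for 527 and 535 Sox2 pairs in NPC replicates 1 and 2, and for 735 and 775 pairs in ES replicates 1 and 2. They were under 0.05 in both NPC libraries for 146 pairs, in both ES libraries for 166 pairs and in all 4 libraries for 15 pairs. Among these 15 are FOR165 and REV240, FOR197 and REV240, FOR192 and REV180, and FOR136 and REV103, described above. REV152, at 435 kb and thus next to the NPC division at 440 kb, is in 3 of the 15. With FOR279, 376 kb away, it had 322 and 830 reads in NPCs, against 60 and 81 in ES cells. With FOR307, 451 kb away, it had 130 and 261 reads in NPCs, against 43 and 19 in ES cells. With FOR007, 412 kb away on the other side, it had 38 and 110 reads in NPCs, against 8 and 7 in ES cells. The deposited ratios of these 3 pairs were 3.37 to 10.8 over all libraries.

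FOR190, at 586 kb, took 11.1% and 13.3% of the Sox2 reads in NPCs, against 5.79% and 4.34% in ES cells. It was part of 4 of the 5 largest pairs at 20 kb or more in each NPC library, with REV240, REV217, REV182 and either REV203 or REV180. With REV217, 73.8 kb away, it had 9037 and 26562 reads in NPCs, against 507 and 195 in ES cells (log2 fold change 4.54, edgeR adjusted p = 0.0247). With REV182, 29.8 kb away, it had 9904 and 25785 reads in NPCs, against 2613 and 895 in ES cells (log2 fold change 2.27, edgeR adjusted p = 0.0703). FOR190 and REV152 were chosen after their values were seen.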
